A study of Mus musculus with 2 samples.

Results

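Mir486, Mir3107, Mir144 and Mir451a are 4 of the 2202 microRNA genes counted by microRNA-seq in mouse gastrocnemius, a muscle of the calf. They were chosen by symbol: Mir486 lies in Ank1, Mir3107 overlaps it on the opposite strand, and Mir144 with Mir451a is the blood pair set beside it. The samples form 1 group of 2 libraries (replicates 1 and 2, biological per the labels), with inserts under 30 nt, from male adults of the B6CASTF1/J strain aged 18 to 20 months. These animals are hybrids of the C57BL/6J and CAST/EiJ strains, both libraries carried the same genotype and the labels named no treatment. The labels give both replicates the same donor identifier, without saying whether it names an animal or the strain, and nothing in them states that the replicates came from separate animals. The SD over n = 2 and any p-value therefore measure only the difference between these 2 libraries, which may be technical.

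MicroRNAs are short RNAs cut from hairpin precursors that guide Argonaute proteins to complementary sites in mRNAs. The microRNA of Mir486 is known both from striated muscle, where it is made with the host gene Ank1, and from red cells, where it is abundant. Mir144 and Mir451a are made from a shared primary transcript that the transcription factor GATA1 drives in erythroid cells, and their products are commonly read as markers of red cells. The precursor of Mir451a is known to bypass Dicer and to be cut by AGO2. MicroRNA reads span the mature molecule, so levels were not divided by gene length. Ligation and amplification can favour some sequences, so a level compares reads, not molecules.

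The mature sequences of the blood pair are shown because their seeds and their place in the hairpin set the genes apart. RefSeq entries on the GRCm38.p6 build were found for 2 of the 4 genes, Mir144 and Mir451a. Mir451b, annotated on the strand opposite to Mir451a, is shown beside them. Capitals mark the seed, bases 2 to 8 counted from the 5′ end.
mmu-miR-144-3p: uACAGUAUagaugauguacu
mmu-miR-144-5p: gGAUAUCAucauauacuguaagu
mmu-miR-451a: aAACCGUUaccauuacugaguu
mmu-miR-451b: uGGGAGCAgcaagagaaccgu

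The 4 seeds differed from each other, and none of the other mature sequences among the 1738 in the table shared one of them over bases 2 to 8. Over bases 2 to 7, miR-144-3p matched 1 other sequence, miR-101a-3p. The gene of that sequence, Mir101a, named after its values were seen, was at 305 CPM (counts scaled to a library total of 1000000 assigned counts) in replicate 1 and 115 CPM in replicate 2.

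The hairpins of the pair are shown because the mature sequence sits differently in each. Here capitals mark the annotated mature parts.
Mir144 hairpin: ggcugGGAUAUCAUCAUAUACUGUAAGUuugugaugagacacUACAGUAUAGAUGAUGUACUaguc
Mir451a hairpin: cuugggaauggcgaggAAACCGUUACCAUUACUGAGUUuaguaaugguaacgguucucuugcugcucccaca

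In a minimum free energy fold computed from these letters, the 66-base Mir144 hairpin had 27 base pairs and a terminal loop of 6 bases, and neither of its mature arms entered the loop. The 72-base Mir451a hairpin had 30 base pairs and a loop of 4 bases. The 22 bases of miR-451a, positions 17 to 38 of that hairpin, ran up the 5′ arm and took in all 4 loop bases. The longest run that miR-451a shared with any of the other 1004 hairpins was 16 bases, with Mir451b, marked here in capitals.
miR-451a and Mir451b: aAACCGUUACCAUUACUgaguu

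A read of miR-451a longer than that run thus had letters found on the plus strand of the locus and not in the Mir451b hairpin. The runs that miR-144-5p and miR-144-3p shared with any other hairpin were 9 and 10 bases. The tables count reads per gene, so the arms of Mir144 could not be told apart.

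Mir486 (ENSMUSG00000070084.3) lies on chromosome 8 from 23142555 to 23142682, plus strand, in mm10 coordinates counted from 1 with the GENCODE M21 annotation. Mir3107 (ENSMUSG00000106471.1) lies from 23142573 to 23142662 on the minus strand, with all of its 90 bases inside the 128 bases of Mir486. Both are intronic to Ank1, whose protein ankyrin-1 ties the spectrin skeleton to the red cell membrane and, in short forms, sits in the sarcoplasmic reticulum of muscle. All 15 annotated Ank1 transcripts that span Mir486 hold it in an intron. Of these, 4 start only 2462 to 3525 bases upstream of Mir486 and 11 start 84030 to 167711 bases upstream. The tables hold no counts of Ank1 itself, so no value says which of these transcripts was made. The antisense gene Gm15816 also spans the locus on the minus strand.

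Mir144 (ENSMUSG00000065401.1) lies on chromosome 11 from 78073005 to 78073070 and Mir451a (ENSMUSG00000070065.1) from 78073170 to 78073241, both on the plus strand. Only 99 bases separate them, and no gene other than Mir451b overlaps either. The nearest protein-coding gene is Eral1, which ends 134 bases beyond Mir451a on the other strand.

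**Figure D1:**
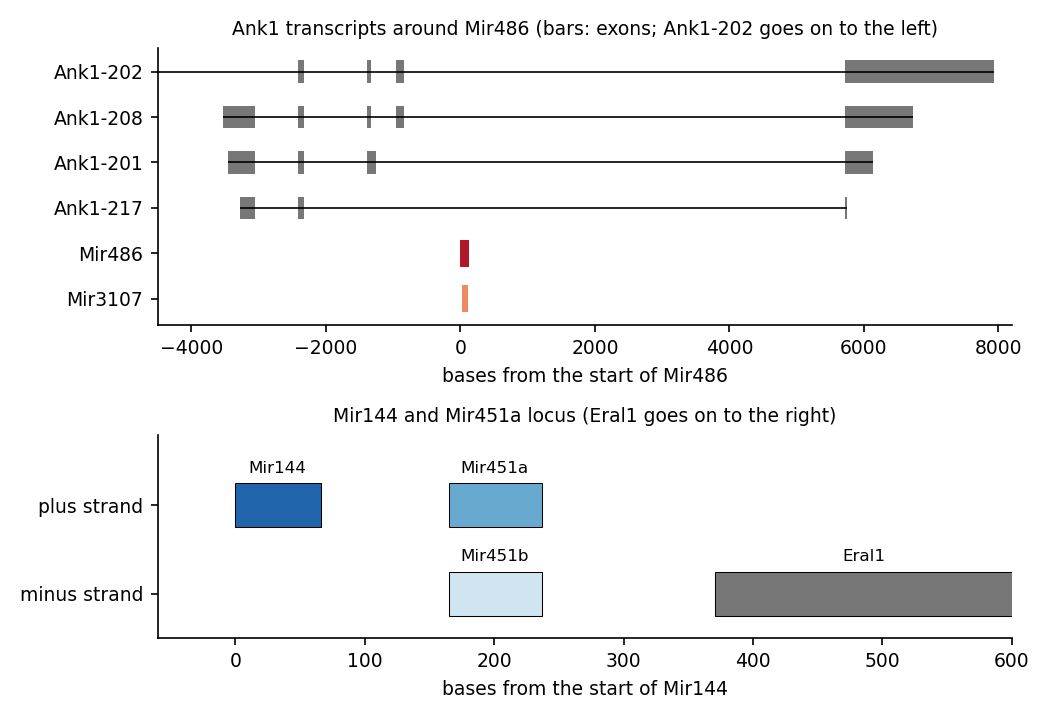
Maps of the 2 loci in bases from the start of Mir486 (top) and of Mir144 (bottom); in the top map bars are exons of 4 of the Ank1 transcripts and coloured bars are microRNA genes, and in the bottom map the 2 rows are the strands. Mir486 and Mir3107 lie together in 1 Ank1 intron, and Mir451b covers the same 72 bases as Mir451a on the minus strand.

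The counts assigned to microRNA genes summed to 4442692 in replicate 1 and 2156222 in replicate 2, so replicate 1 was 2.06-fold deeper. Multimapping reads, 73.8% and 70.2% of all reads in the tables, are in no gene's count. The 8 muscle fibre markers had counts in both libraries and summed to 12172 CPM in replicate 1 and 62284 CPM in replicate 2, of which Mir206 alone was 11810 and 61540 CPM. Confidence intervals below cover counting error only and treat every read as an independent draw. Amplified reads are not independent molecules, so the intervals may be too narrow even for that error.

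Mir486 was the most abundant of the 4 genes in both libraries. It had 18843 reads in replicate 1 and 7367 in replicate 2, or 4241 CPM (Wilson 95% interval 4181 to 4302) and 3417 CPM (3340 to 3495). The mean was 3829 ± 583 CPM (SD, n = 2), or 0.383% ± 0.0583 of assigned counts. It ranked 33rd of 2202 genes in replicate 1 and 37th in replicate 2, so its place in the profile was nearly the same in both. Only 603 genes had a count in replicate 1 and 524 in replicate 2, and 1559 had none in either.

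Mir451a had 2261 reads in replicate 1 and 194 in replicate 2. These were 509 CPM (488 to 530) and 90.0 CPM (78.2 to 104), with a mean of 299 ± 296 CPM (SD, n = 2). Its rank was 73rd in replicate 1 and 132nd in replicate 2. The SD was about as large as the mean, so a single level describes this gene poorly.

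Mir144 had 1190 reads in replicate 1 and 40 in replicate 2. These were 268 CPM (253 to 284) and 18.6 CPM (13.6 to 25.3), with a mean of 143 ± 176 CPM (SD, n = 2). It ranked 100th in replicate 1 and 211th in replicate 2, and was the only one of the 4 whose SD exceeded its mean. Together the blood pair took 0.0777% of assigned counts in replicate 1 and 0.0109% in replicate 2. Mir486 alone had 5.46 times as many reads as the pair together in replicate 1 and 31.5 times in replicate 2.

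Mir3107 was low and was the only one of the 4 higher in replicate 2. It had 262 reads in replicate 1 and 417 in replicate 2, more reads in the shallower library. These were 59.0 CPM (52.3 to 66.6) and 193 CPM (176 to 213), with a mean of 126 ± 95.05 CPM (SD, n = 2).

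The order by mean was Mir486, Mir451a, Mir144 and Mir3107. Mir486 stood above the other 3 in both libraries by more than its own spread. The order of the others did not hold: it was Mir451a, Mir144, Mir3107 in replicate 1 and Mir3107, Mir451a, Mir144 in replicate 2, and their means differed by less than the SD of Mir451a.

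**Figure D2:**
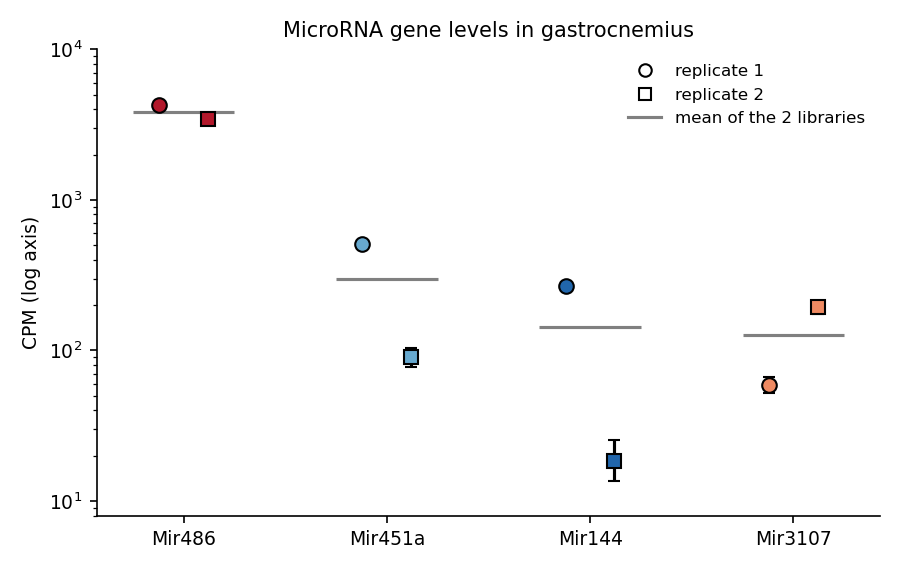
Level of each gene in CPM on a log axis, with circles for replicate 1, squares for replicate 2, Wilson 95% intervals as error bars and a grey line at the mean. Mir486 lies at 4241 and 3417 CPM, while Mir144 spans 268 to 18.6 CPM.

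The neighbours of Mir486 by mean level were Mir145a, a microRNA gene known from smooth muscle, at 4053 ± 1744 CPM (SD, n = 2) and Mir423 at 3817 ± 1117 CPM. Neither differed from it beyond the spread, since each was higher than Mir486 in 1 library and lower in the other. Around Mir451a lay Mir1843a at 308 ± 64.6 CPM and Mir499, the microRNA gene of the slow myosin gene Myh7b, at 295 ± 316 CPM. Around Mir144 lay Mirlet7c-1 at 147 ± 6.61 CPM and Mir142, a blood cell microRNA gene, at 143 ± 54.0 CPM. Mir142 held 181 and 105 CPM, a smaller difference than that of Mir144 at the same mean.

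Counts by strand told the overlapping genes apart only for reads placed on 1 strand. At the Mir486 locus 98.6% of 19105 such reads in replicate 1 and 94.6% of 7784 in replicate 2 lay on the strand of Mir486. In replicate 1 the Mir3107 strand took 1.37% (Wilson 95% interval 1.22 to 1.55) and in replicate 2 it took 5.36% (4.88 to 5.88), so the intervals did not overlap. The ratio of Mir486 to Mir3107 reads was 71.9 in replicate 1 (exact 95% interval 63.7 to 81.6) and 17.7 in replicate 2 (16.0 to 19.5). It was lower in replicate 2 by a factor of 0.246 (0.209 to 0.288).

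The hairpin of Mir486 is known to be close to a palindrome, so products of both strands are much alike. Reads that align equally well to both strands would be among the multimapping reads, and how many of them there were was not tested. The levels of Mir486 and Mir3107 and their ratio therefore cover only reads placed on 1 strand. Without strand, both genes had 0 counts in both libraries, because reads over overlapping genes were then ambiguous.

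At the Mir451a locus every read lay on the plus strand. Mir451b had 0 of 2261 reads in replicate 1, which allows a share of up to 0.133%, and 0 of 194 in replicate 2, which allows up to 1.55%. As a level, a count of 0 allowed up to 0.675 CPM in replicate 1, and in replicate 2 up to 1.39 CPM. Mir451a, too, had 0 counts without strand, whereas Mir144, which no gene overlaps, had the same 1190 and 40.

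Replicate 2 was set against replicate 1 to ask how far genes of muscle and blood differed between samples with the same labels. In an exact two-sided binomial test of each gene's counts, 61.8% of 380 tested genes differed at an adjusted p under 0.05 (Benjamini-Hochberg over all tested genes), so passing it says little about a gene. All 4 genes passed, 3 higher in replicate 1 (31.6% of tested genes) and 1 higher in replicate 2 (30.3%). The size of the difference is more telling, given as the log2 ratio of replicate 2 over replicate 1 on the CPM + 1 scale. The fold given with each log2 ratio is on that scale too. The exact interval of each log2 ratio comes from the scaled counts without the added 1. Over the 228 genes whose counts summed to 100 or more, the log2 ratios had a median of −0.021 and an SD of 1.13.

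Mir486 had a log2 ratio of −0.22 (exact 95% interval −0.26 to −0.18, adjusted p = 3.09e-28 in the exact binomial test). That is a 1.16-fold difference, well inside the spread of genes, and only 38 of the 228 genes with 100 or more counts had a smaller one. The value moved with the genes used for scaling, from −0.36 with no count filter to −0.12 with genes of 100 or more counts, and stayed below 0.

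Mir451a had a log2 ratio of −2.39 (−2.63 to −2.19, adjusted p = 2.62e-172, exact binomial test), a 5.26-fold higher level in replicate 1. Of the 228 genes, 7 had a lower ratio. Mir144 had a log2 ratio of −3.69 (−4.25 to −3.30, adjusted p = 3.57e-138, exact binomial test), 12.9-fold higher in replicate 1. Only 1 gene of the 228, Mir301, had a lower ratio than Mir144. Both genes of the pair thus lay at the same edge of the distribution.

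Mir3107 had a log2 ratio of 1.79 (1.58 to 2.04, adjusted p = 9.30e-58, exact binomial test), 3.46-fold higher in replicate 2, and 7 of the 228 genes had a higher ratio. Mir486 and Mir3107, though on the same bases of the genome, lay on opposite sides of 0. The scaling alternatives left the signs of all 4 genes as they were.

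**Figure D3:**
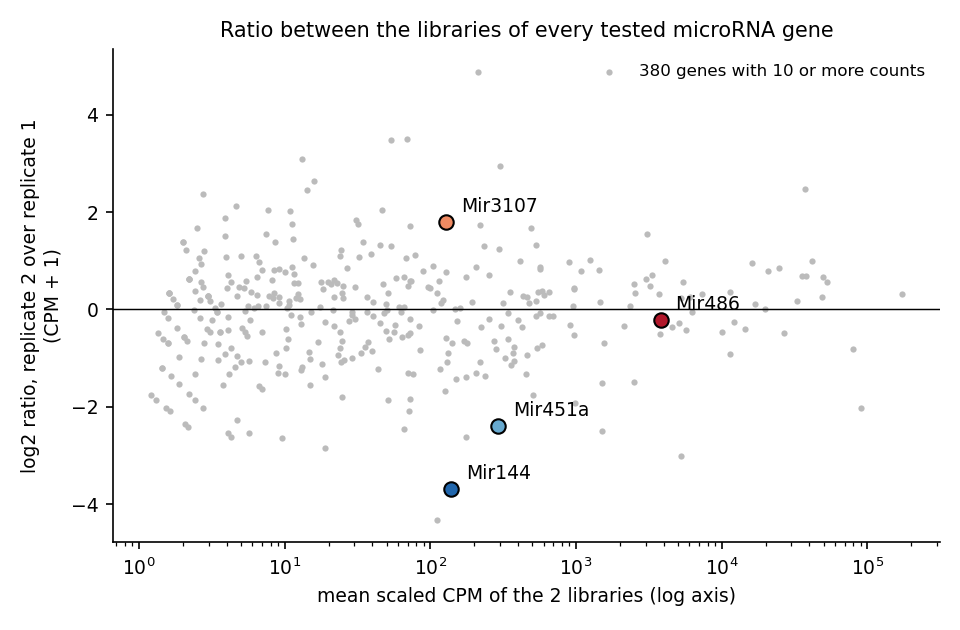
Log2 ratio of replicate 2 over replicate 1 (CPM + 1) against the mean scaled CPM on a log axis, for 380 genes in grey and the 4 genes in colour. Mir486 lies near 0 at −0.22, Mir451a and Mir144 lie at −2.39 and −3.69, and Mir3107 lies at 1.79.

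Ratios of reads between genes of the same library do not depend on library size or scaling. Mir486 had 15.8 reads for each Mir144 read in replicate 1 (exact 95% interval 14.9 to 16.8) and 184 in replicate 2 (135 to 258). The ratio was 11.6-fold higher in replicate 2 (exact conditional interval 8.48 to 16.4). Against Mir451a, Mir486 had 8.33 reads for each read in replicate 1 (7.98 to 8.71) and 37.97 in replicate 2 (32.9 to 44.0), a 4.56-fold higher ratio (3.92 to 5.32). Mir486 therefore did not move in step with either gene of the blood pair in these libraries. Adding the Mir3107 reads to those of Mir486 changed these log2 changes only from 3.54 to 3.60 for Mir144 and from 2.19 to 2.25 for Mir451a.

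The genes of the pair also differed from each other. Mir451a had 1.90 reads for each Mir144 read in replicate 1 (1.77 to 2.04) and 4.85 in replicate 2 (3.44 to 6.999). The ratio was 2.55-fold higher in replicate 2 (1.79 to 3.71), so Mir144 was the lower of the pair in both libraries and more so in replicate 2. The wide interval in replicate 2 comes from its 40 reads of Mir144.

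**Figure D4:**
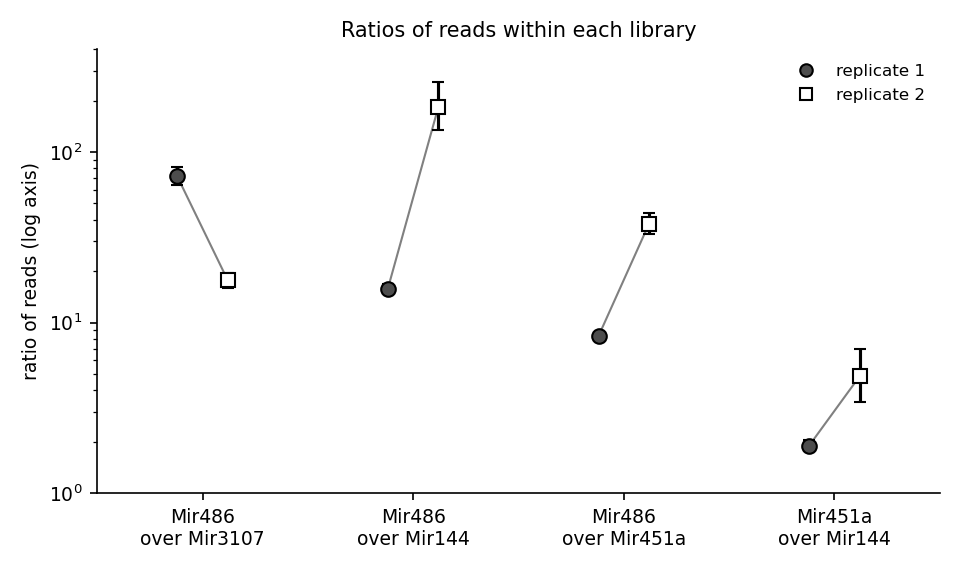
Ratios of reads within each library on a log axis, with filled circles for replicate 1, open squares for replicate 2 and exact 95% intervals as error bars. The ratio of Mir486 to Mir144 is 15.8 in replicate 1 and 184 in replicate 2, while that to Mir3107 is 71.9 and 17.7, higher in replicate 1.

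The genes closest to each of the 3 main genes in log2 ratio were taken from those with 100 or more counts, over these 2 libraries. Nearest to Mir486 were Mir20a at −0.23, Mir223, a microRNA gene of myeloid cells and platelets, at −0.23 and Mir326 at −0.24. Nearest to Mir451a were Mir148a at −2.45, Mir15a at −2.50 and Mir152 at −2.61. Nearest to Mir144 were Mir301 at −4.33, Mir195a at −3.002 and Mir205 at −2.85, the nearest of them 0.64 away. Likeness over 2 libraries is a description only.

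Among the other microRNA genes listed as abundant in red cells, more passed as higher in replicate 1 than in replicate 2, though both directions occurred. Of the 14 genes listed, Mir451b, annotated opposite to Mir451a, had 0 counts in both libraries. The other 13 were tested. In the exact binomial test 7 passed as higher in replicate 1, 4 passed as higher in replicate 2 and 2 missed the threshold, where 31.6% and 30.3% of all tested genes passed as higher in replicates 1 and 2. Their median log2 ratio was −0.52 against 0.02 over all 380 tested genes. The most abundant was Mir191 at 11332 ± 1478 CPM (SD, n = 2), higher in replicate 2 with a log2 ratio of 0.36. Mir92-1, of the mir-17 cluster, held 1562 ± 583 CPM with −0.69, and Mir93, of the Mir106b cluster, held 1467 ± 46.7 CPM with 0.16. Their ratios ranged from −1.38 for Mir25 to 1.24 for Mir16-2, both named for these values. None of these ratios was as low as that of Mir451a (−2.39) or Mir144 (−3.69). For Mir363, with 13 and 1 reads in replicates 1 and 2, the exact interval of −7.97 to 0.17 took in both values. Mir16-1 went the other way from Mir16-2, at −1.33. Both make the same mature sequence, as do Mir92-1 and Mir92-2, so their reads could be multimapping and their levels are uncertain.

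The striated muscle genes other than Mir486 were called in both directions at shares near those of all tested genes (31.6% higher in replicate 1 and 30.3% in replicate 2). Of 10 genes 9 were tested, 4 of them higher in replicate 2, 3 higher in replicate 1 and 2 not passing, with a median log2 ratio of −0.30. Of the 8 muscle fibre markers summed above, 3 passed in each direction and 2 missed the threshold, so the sum follows Mir206 alone. In replicates 1 and 2, Mir206, a gene of skeletal muscle, was at 11810 and 61540 CPM, Mir499 at 70.9 and 518 CPM, and Mir1a-2, whose mature sequence Mir1a-1 also makes, at 183 and 81.2 CPM. The log2 ratio of Mir206 was 2.69 above that of Mir486, and that of Mir1a-2 was 0.86 below it. In reads, Mir486 was 0.348 of the sum of the striated muscle genes in replicate 1 and 0.0548 in replicate 2. Mir206 made up 52468 of the 54085 reads of that sum in replicate 1 and 132694 of 134348 in replicate 2. The ratio to the sum was thus mainly a ratio to Mir206. Multimapping reads of these genes are not in the sum. So Mir486 was in step neither with the blood pair nor with the muscle genes higher in replicate 2. Its ratio lay near the list median of −0.30, which is the value of Mir133a-1 itself. The 2 muscle genes that missed the threshold were named after their values were seen. Mir133a-1, at −0.30, had 66 and 24 reads in replicates 1 and 2 (exact interval −1.06 to 0.37). Mir133a-2, at −0.47, had 17 and 5 (−2.42 to 0.87). These intervals are too wide to say whether Mir486 moved with either gene, so nothing is drawn from the nearness. The 3 muscle genes higher in replicate 1 lay further below Mir486, from −1.25 to −1.04.

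**Figure D5:**
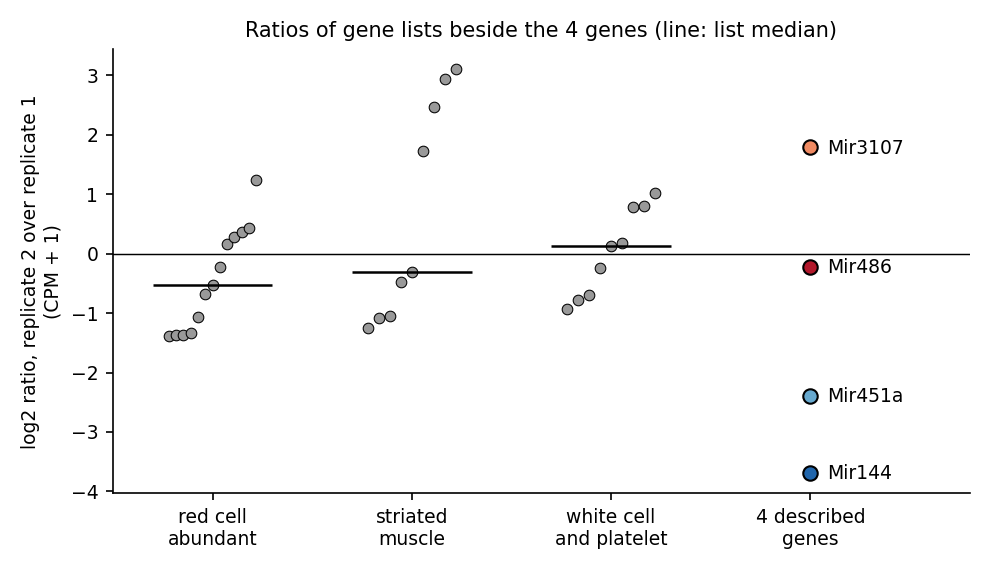
Log2 ratio of replicate 2 over replicate 1 (CPM + 1) of each tested gene of 3 lists, with the list median as a line, beside the 4 genes in colour. The red cell list ends at −1.38, above Mir451a at −2.39 and Mir144 at −3.69, and Mir486 lies between the medians of the lists.

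Markers of other cells differed between the libraries in both directions. The defining white cell and platelet genes Mir223, Mir142 and Mir150, 3 of 3 with counts in both libraries, summed to 1432 CPM in replicate 1 and 2007 CPM in replicate 2. Mir150 alone, at 1082 and 1767 CPM with a log2 ratio of 0.80, was higher in replicate 2. Mir142 (−0.69) and Mir223 (−0.23) passed as higher in replicate 1, the direction of the blood pair. Of the longer white cell and platelet list, 4 of 9 tested genes were higher in replicate 1 and 4 in replicate 2, and 1 missed the threshold, beside 31.6% and 30.3% of all tested genes. The median log2 ratio was 0.14. Its most abundant members were Mir150 at 1425 ± 485 CPM (SD, n = 2), Mir155 at 1239 ± 546 CPM and Mir181b-2 at 529 ± 20.7 CPM. The endothelial gene Mir126a was at 104418 and 55386 CPM in replicates 1 and 2, and the muscle fibre sum and the depth differed as given above. The part of these differences in the result for Mir144 and Mir451a was not tested. In bulk tissue, fewer cells of a type and less of a microRNA per cell cannot be told apart.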

How the data were processed

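MicroRNA-seq was made from gastrocnemius in 2 libraries. The authors deposited raw counts of reads per microRNA gene, on mm10 with GENCODE M21 per the file headers of the readmes. For the aligner and the counter, the sources used here give no name. From their values, the 3 columns of deposited counts ignore strand, follow the gene's strand or follow the other strand. The second kind, sense counts, was used. Rows of unmapped, multimapping and unplaced reads, 84.3% and 80.2% of all reads, did not enter totals or tests. All 2202 identifiers matched M21.

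CPM used the assigned counts. Log2 ratios used CPM + 1 with edgeR's TMM factors from genes with 10 or more summed counts. Those genes were compared by an exact binomial test, two-sided, at a Benjamini-Hochberg adjusted p of 0.05, and the test was tried on simulated data. The test compares the libraries and takes in counting error only. Ratios between genes had exact intervals and no p-value.

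The named genes were the members and genes overlapping them, the nearest genes in mean CPM, the 3 nearest in log2 ratio and the 3 most abundant of each of the 3 lists. Defining cell type markers such as Mir126a, the most abundant gene Mir378a, left out of totals as an alternative, and copies of listed genes are also named. Mir25, Mir363, Mir16-1, Mir16-2, Mir101a, Mir133a-1 and Mir133a-2 were chosen after their values were seen. The members and lists were chosen with earlier results of these data known. Other scalings (DESeq2 size factors, plain totals), filters, pseudocounts, totals and counts without strand were tried. Hairpins were folded with RNAfold. The tools were R 4.3.3, edgeR 4.0.16, DESeq2 1.42.0, Python 3.11.15, numpy 2.4.6, scipy 1.17.1, matplotlib 3.10.9 and ViennaRNA 2.7.2.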

Additional observations from a re-analysis of the deposited data

How the results depend on the processing

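The log2 ratios of the 4 genes kept their direction and their side of the threshold in all 29 alternative values run, over scaling, count filter, pseudocount, strand and totals. The pseudocount does not enter the test, so the values with another pseudocount could not change their side of the threshold. The log2 ratios ranged from −0.36 to −0.12 for Mir486, 1.64 to 1.89 for Mir3107, −3.83 to −3.45 for Mir144 and −2.54 to −2.30 for Mir451a. With no count filter the scaling moved every ratio by −0.15 against the one used. The number of genes called was 235 of 380 (61.8%), 188 of 228 (82.5%) with 100 or more counts, 225 of 643 (35.0%) with no count filter and 211 of 355 (59.4%) without strand, so the share moved with the genes tested. Over all reads of the tables, multimapping reads included, the means of Mir486, Mir451a, Mir3107 and Mir144 were 671, 48.7, 23.8 and 22.8 CPM, so Mir3107 and Mir144 changed places in the order by mean. With Mir378a left out of the totals the mean of Mir486 was 4623 CPM. Leaving out 1 library gave 3417 to 4241 CPM for Mir486, 59.0 to 193 for Mir3107, 18.6 to 268 for Mir144 and 90.0 to 509 for Mir451a. Counts without strand gave a value for Mir144 only. No paired analysis was possible because the labels give 1 group. Mir144 in replicate 2, with 40 reads, is the value that depth limits most.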
